A study of Homo sapiens with 6 samples.

Results

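The epithelial marker genes of endometrial carcinoma (ECa) were examined in RNA-seq of HEC-1-A cells, an established human endometrial adenocarcinoma line of the endometrioid subtype. The members were 10 genes taken by symbol from a given list, KRT7, KRT8, KRT18, KRT19, CDH1, EPCAM, MUC1, CLDN3, CLDN4 and VIM, of the 23228 genes counted. The control group was 3 libraries of HEC-1-A cells in McCoy's 5A medium with 10% serum (vehicle, according to the methods of the study), and the SMIP34 group was 3 libraries of the same cells after 24 h with the PELP1 inhibitor SMIP34 at 20 µM. No genetic change was made in either group, and the line is cultured without the stroma, vessels and leukocytes of a tumour. The labels do not say whether replicates were separate cultures, so p-values measure the spread between these samples, which may be technical.

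Epithelial cells are held together at their lateral borders by tight junctions, adherens junctions and desmosomes. Keratin filaments, built from pairs of a type I and a type II keratin, anchor to the desmosomes and carry mechanical load. KRT7 and KRT8 are type II keratins, and KRT18 and KRT19 are type I keratins of simple epithelium. CDH1 (E-cadherin) joins neighbouring cells at adherens junctions, CLDN3 and CLDN4 are claudins of the tight junction strand, EPCAM is an epithelial adhesion and signalling protein, and MUC1 is a membrane mucin of the apical surface. VIM (vimentin) is the intermediate filament of mesenchymal cells, which many endometrial carcinomas also make beside keratins.

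The libraries held from 19562711 to 22014835 counts assigned to genes. Control replicate 1, with the fewest counts, had a count in 16881 genes, beside 15965 to 16100 genes in each other library. The source of this difference was not tested. All 10 members passed the filter on low counts, by which 13408 genes were tested with the quasi-likelihood test of edgeR and Benjamini-Hochberg adjustment over all of them. Levels are given as CPM, read counts relative to the library size after TMM scaling, or as RPKM, the same value per kilobase of exon, which alone allows genes to be compared with each other. The mRNA of PELP1, the target of the inhibitor, was at 133, 146 and 138 CPM in control replicates 1, 2 and 3 and at 158, 159 and 151 CPM in SMIP34 replicates 1, 2 and 3 (log2 fold change 0.16 with a standard error, SE, of 0.035, adjusted p = 0.000746).

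In control HEC-1-A cells the members covered a wide range of levels. KRT7 was the most abundant at 1015 ± 23.9 RPKM (SD, n = 3), rank 66 among the 13408 genes. KRT19 at 566 ± 16.6 RPKM and KRT18 at 565 ± 11.1 RPKM (SD, n = 3 each) could not be ordered, because their control libraries overlapped. CLDN4 followed at 408 ± 6.26 RPKM and KRT8 at 367 ± 7.84 RPKM (SD, n = 3 each).

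EPCAM stood at 222 ± 6.05 RPKM, CLDN3 at 76.0 ± 3.02 RPKM and CDH1 at 43.5 ± 1.22 RPKM (SD, n = 3 each). The level of CDH1 still exceeded that of 84.5% of the tested genes. MUC1 at 5.31 ± 0.237 RPKM exceeded 35.7% of them, and VIM at 1.91 ± 0.258 RPKM exceeded 19.5% (SD, n = 3 each). Every neighbouring pair in this order other than KRT19 and KRT18 had control libraries that did not overlap, and the step from CDH1 to MUC1 was the widest, a ratio of 8.20 between control means.

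**Figure D1:**
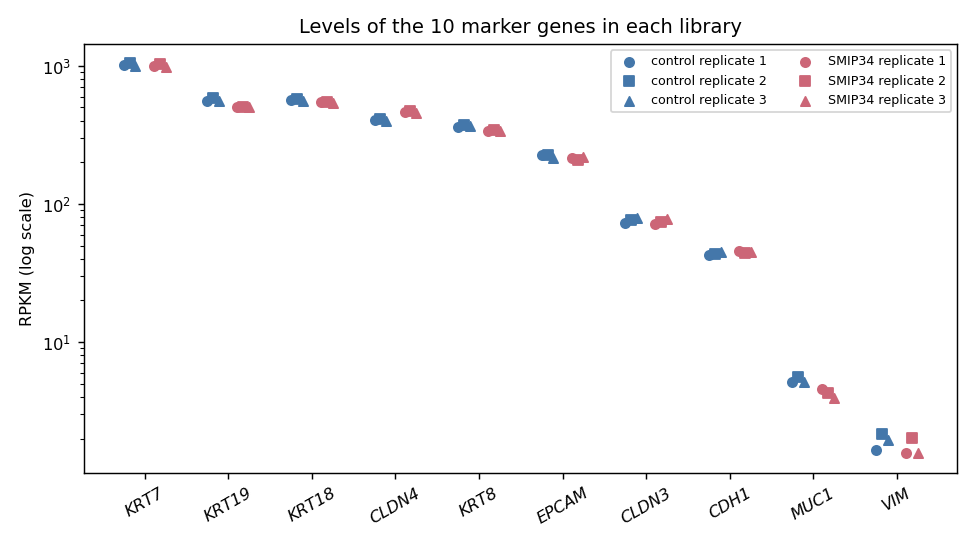
RPKM (log axis) of the 10 marker genes in each of the 6 libraries, ordered by the control mean, with control libraries in blue, SMIP34 libraries in red and a marker shape for each replicate number. KRT7 lies between 974 and 1041 RPKM in the 6 libraries, while MUC1 and VIM lie below 6 RPKM, apart from the other 8 genes.

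The label of the list fitted HEC-1-A cells for the keratins, CDH1, EPCAM and the claudins, while MUC1 and VIM mRNA were low. VIM had between 68 and 100 reads per library and MUC1 between 156 and 223, so these were the least precise of the 10. Markers of other cell types were at low levels. The 10 fibroblast and stromal markers summed to between 5.20 and 6.69 CPM in control and between 6.38 and 6.75 CPM in SMIP34-treated cells, with LUM, PDGFRA and POSTN at 0 in all 6 libraries. The 10 endothelial markers summed to at most 1.03 CPM. The 12 leukocyte markers summed to between 2.52 and 2.94 CPM in control and between 3.19 and 4.10 CPM in SMIP34-treated cells, with CD3D, CD3E, CD2, MS4A1 and TYROBP at 0. The part of these small sums in the results for the members was not tested.

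SMIP34 changed 4 of the 10 members, none of them past the fold limit of 0.5 on the log2 scale. CLDN4 rose by 13.8%, while MUC1 fell by 19.7%, KRT19 fell by 10.9% and KRT8 fell by 7.77%. KRT7, KRT18, CDH1, EPCAM, CLDN3 and VIM did not pass the adjusted p-value of 0.05. The share of members called, 40%, was near that over all genes, where 4645 of 13408 (34.6%) passed the adjusted p-value of 0.05, with 17.4% higher and 17.2% lower. Past the fold limit as well there were 444 genes (3.31%, with 1.44% higher and 1.87% lower), and the count of 0 members was also 0 at an unadjusted p-value, with DESeq2 and with limma voom. The median log2 fold change of the members was -0.053, beside -0.0022 over all genes tested, and the median absolute log2 fold change was 0.086 for the members and 0.12 over all genes.

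**Figure D2:**
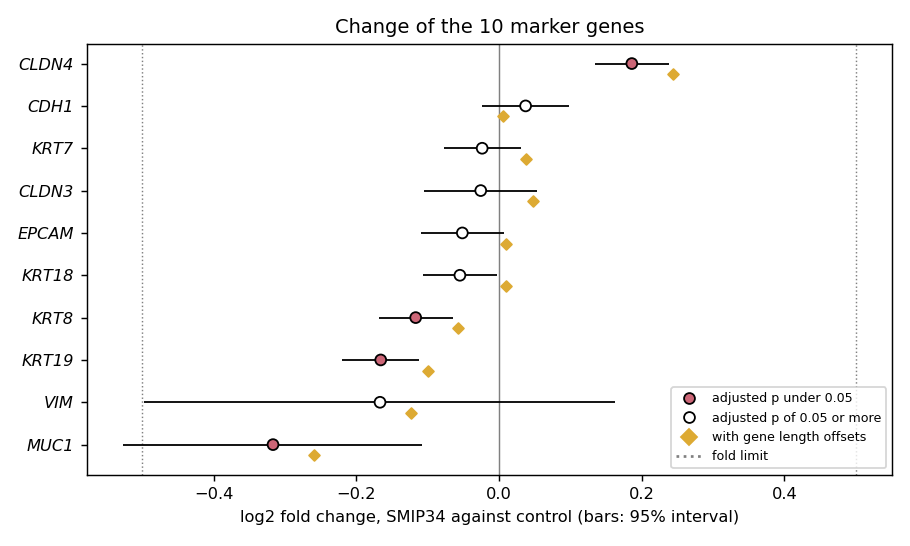
Log2 fold change of each marker gene in SMIP34-treated against control cells (edgeR, circles) with its 95% interval (bars), filled where the adjusted p-value is under 0.05, and the value after gene length offsets (diamonds). CLDN4 lies above 0 and KRT8, KRT19 and MUC1 lie below it, and the interval of VIM is the widest.

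Among the 4 keratins of the marker list, KRT19 had the log2 fold change farthest from 0. KRT19, the smallest keratin of simple epithelium (chromosome 17 of hg19, from 39679869 to 39684641, 6 exons), was at 823, 861 and 815 CPM in control and at 743, 745 and 739 CPM in SMIP34 replicates 1, 2 and 3. All treated values were under the lowest control. The log2 fold change was -0.17 (SE 0.026, adjusted p = 1.54e-05, edgeR), and it stayed between -0.18 and -0.14 when single libraries were omitted.

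KRT8, the type II partner of KRT18 (chromosome 12, from 53290971 to 53298868), was at 645, 673 and 658 CPM in control and at 603, 613 and 606 CPM in SMIP34-treated cells. The groups did not overlap, and the log2 fold change was -0.12 (SE 0.026, adjusted p = 0.000809, edgeR). KRT18 (chromosome 12, from 53342655 to 53346685) lies 43786 bases from KRT8. It was at 870, 883 and 849 CPM in control and at 842, 838 and 825 CPM in treated cells.

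The treated libraries of KRT18 were also all below the controls, by a smaller distance, with a log2 fold change of -0.055 (95% interval -0.11 to -0.0033, adjusted p = 0.0924, edgeR) that did not pass. Without control replicate 3 it was -0.068 and passed (adjusted p = 0.0162). KRT7 (chromosome 12, from 52626954 to 52642709), the most abundant member, was at 1713, 1772 and 1694 CPM in control and at 1688, 1749 and 1659 CPM in treated cells. Its groups overlapped, and the 95% interval of the difference, from -5.26 to 2.12%, was narrow (adjusted p = 0.526, edgeR).

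The balance among the keratins was described by ratios of RPKM, which were not tested. KRT8 to KRT18 was 0.633, 0.651 and 0.662 in control and 0.612, 0.625 and 0.628 in SMIP34 replicates 1, 2 and 3, so the groups just failed to overlap. KRT19 to KRT18 (a pair chosen after the values were seen) was between 0.987 and 1.02 in control and 0.920, 0.928 and 0.935 in treated cells. The sum of both type II keratins to that of both type I keratins was 1.22 ± 0.00851 in control and 1.27 ± 0.0232 in treated cells (SD, n = 3 each). Together the 4 keratins took 0.409 ± 0.00912% of the scaled counts in control and 0.388 ± 0.00582% in treated cells (SD, n = 3 each).

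Reads that mapped to several places were divided into fractions by the authors if their mapping quality was at least 2. Keratin genes have many processed copies in the genome. GENCODE release 44 names 51 KRT8, 67 KRT18 and 5 KRT19 pseudogenes. The KRT18 count was fractional in 6 of 6 libraries, that of CLDN4 in 5, those of KRT7 and KRT19 in 4, those of KRT8 and EPCAM in 2, those of CDH1 and CLDN3 in 1, and those of MUC1 and VIM in 0. The number of libraries did not follow the number of named copies, since CLDN4 and KRT7 have 0 by name. No other gene of the annotation overlapped an exon of any member on either strand. How reads were shared between KRT8, KRT18 or KRT19 and their copies, or left out by mapping quality, was not tested. These values are uncertain to that extent.

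**Figure D3:**
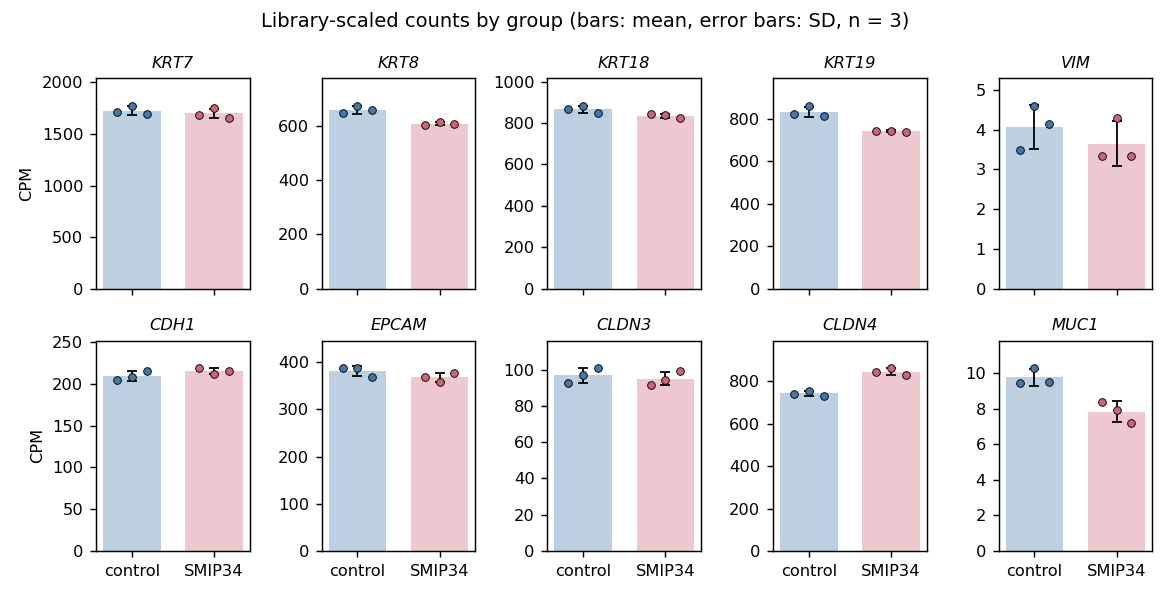
CPM of each marker gene in control and SMIP34-treated libraries (bars are means, error bars are SD, n = 3, points are libraries, each axis from 0). The treated libraries lie above the controls in CLDN4, lie below them in KRT8, KRT18, KRT19 and MUC1, and overlap them in the other 5 genes.

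The claudins CLDN3 and CLDN4 are neighbours on chromosome 7 of hg19, each with 1 exon, 60592 bases apart and on opposite strands. CLDN4 (from 73245193 to 73247015) was at 742, 756 and 733 CPM in control and at 843, 863 and 832 CPM in SMIP34 replicates 1, 2 and 3. All treated libraries were above all controls, with a log2 fold change of 0.19 (SE 0.025, adjusted p = 2.45e-06, edgeR), between 0.17 and 0.20 when single libraries were omitted. CLDN4 was the only member called higher.

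CLDN3 (from 73183327 to 73184600) was at 92.8, 97.1 and 101 CPM in control and at 91.7, 94.6 and 99.2 CPM in treated cells. The groups overlapped, and the 95% interval of the difference ran from -7.02 to 3.77% (log2 fold change -0.026, adjusted p = 0.651, edgeR). The sign of this small value turned without control replicate 3 (0.0033) and without SMIP34 replicate 1 (0.00076). The ratio of CLDN4 to CLDN3 in RPKM, chosen after the values were seen and not tested, was 5.59, 5.44 and 5.10 in control and 6.42, 6.38 and 5.86 in treated cells.

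The promoters of both claudins are shown because these adjacent genes differ in level and in their values under SMIP34, and that of MUC1 because it was the member with the lowest log2 fold change. The sequences come from RefSeq (build GRCh38.p14), which held 5 of the 10 members (KRT8, MUC1, CLDN3, CLDN4 and VIM), and each matched GRCh37, the build of hg19, exactly at 1 place. They are the bases before the RefSeq start, of which only those outside the gene in the hg19 annotation are printed, 5′ to 3′ on the strand of the gene, at chr7:73245076-73245192 on the plus strand for CLDN4, chr7:73184601-73184850 on the minus strand for CLDN3 and chr1:155162707-155162956 on the minus strand for MUC1. Capitals mark matches on either strand to the AP-1 motif TGANTCA, the E2-box CACCTG, the GC box GGGCGG, the TATA motif TATAAA and the grainyhead-like motif AACCNGTT. GC box matches overlap each other in MUC1.
CLDN4: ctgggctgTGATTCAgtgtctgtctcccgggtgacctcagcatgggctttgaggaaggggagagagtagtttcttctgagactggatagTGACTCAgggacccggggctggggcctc
CLDN3: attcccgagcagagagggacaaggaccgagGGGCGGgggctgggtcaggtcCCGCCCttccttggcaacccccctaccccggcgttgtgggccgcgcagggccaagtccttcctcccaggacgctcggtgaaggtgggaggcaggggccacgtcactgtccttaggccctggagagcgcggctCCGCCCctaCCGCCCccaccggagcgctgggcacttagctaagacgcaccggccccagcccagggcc
MUC1: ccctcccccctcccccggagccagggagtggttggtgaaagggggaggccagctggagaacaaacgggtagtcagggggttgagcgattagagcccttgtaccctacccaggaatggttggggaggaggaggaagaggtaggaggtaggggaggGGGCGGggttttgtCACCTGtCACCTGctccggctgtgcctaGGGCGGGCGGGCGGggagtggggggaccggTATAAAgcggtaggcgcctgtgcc

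In the 250 bases before the RefSeq start, CLDN4 held 2 AP-1 matches, at 242 and 161 bases from the start. An AP-1 match was found in 6.57% of the 35093 promoters of the table, and neither CLDN3, MUC1, KRT8 nor VIM held one. CLDN3 held 4 GC boxes, CLDN4 held 1 (nearer the start, in bases that are not printed), and 42.6% of promoters held at least 1. MUC1 held 2 adjacent E2-boxes, a motif found in 17.5% of promoters, 4 GC boxes, and a TATA match 24 bases from the start. A TATA match at any place in the window, on either strand, was found in 10.7% of promoters. None of the 5 held the grainyhead-like motif, found in 1.49% of promoters. These matches describe letters in the window only.

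CDH1 (chromosome 16, from 68771195 to 68869444, 16 exons), the E-cadherin gene, was at 205, 208 and 216 CPM in control and at 219, 212 and 215 CPM in SMIP34 replicates 1, 2 and 3. The groups overlapped, and the log2 fold change was 0.037 (SE 0.030, adjusted p = 0.365, edgeR). The 95% interval ran from -1.68 to 7.07%. EPCAM (chromosome 2, from 47596287 to 47614167) was at 388, 387 and 369 CPM in control and at 368, 359 and 377 CPM in treated cells.

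The EPCAM groups overlapped in that control replicate 3 lay within the treated range. Its log2 fold change was -0.052 (95% interval -0.11 to 0.0066, adjusted p = 0.167, edgeR), and without control replicate 3 it was -0.072 and passed (adjusted p = 0.0309). With KRT18 and EPCAM both passing in that case, 5 members were called lower without control replicate 3.

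MUC1 (chromosome 1, from 155158300 to 155162706, 9 exons), whose long extracellular domain covers the apical surface of glandular cells, was at 9.48, 10.3 and 9.53 CPM in control and at 8.38, 7.91 and 7.21 CPM in SMIP34 replicates 1, 2 and 3. The treated values were all under the lowest control. The log2 fold change was -0.32 (SE 0.10, adjusted p = 0.0167, edgeR), with a 95% interval that ran from -30.6 to -7.21%. The call was not kept without control replicate 2 (-0.28, adjusted p = 0.0759) or without SMIP34 replicate 3 (-0.26, adjusted p = 0.0834), nor with DESeq2 (adjusted p = 0.0579).

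VIM (chromosome 10, from 17270258 to 17279592) was at 3.50, 4.6 and 4.14 CPM in control and at 3.33, 4.30 and 3.33 CPM in SMIP34-treated cells. The groups overlapped, and the log2 fold change was -0.17 (SE 0.16, adjusted p = 0.457, edgeR). Single libraries moved this value from -0.30 (without SMIP34 replicate 2) to -0.069 (without control replicate 2), and it did not pass in either case. A difference between -29.2 and 11.9% was within the 95% interval, so a moderate change of VIM was not excluded. The ratio of CDH1 to VIM in RPKM was 26, 20.0 and 23.2 in control and 29.2, 21.8 and 28.6 in treated cells, with overlap.

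Groups whose CPM did not overlap were found for 5 members (KRT8, KRT18, KRT19, MUC1 and CLDN4), beside 44.5% of all genes tested. The 95% intervals of 9 members lay within 0.5 of 0 on the log2 scale, and that of MUC1 reached -0.53.

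Fold changes of these libraries moved with gene length, and 9 of the 10 members are short. Over all genes, the median log2 fold change was -0.10 for the shortest and 0.12 for the longest genes when these were split by exon length into 10 bins of near equal size. KRT7, KRT18, KRT19 and CLDN3 lie in bin 2 (1207 to 1714 bases, median -0.073) and KRT8, EPCAM, MUC1, CLDN4 and VIM in bin 3 (1715 to 2140 bases, median -0.059), while CDH1 lies in bin 8 (median 0.041). With offsets that take out the trend of each library with length, the median of the members was 0.0074. CLDN4 then rose by 0.24 on the log2 scale (adjusted p = 5.24e-11), and KRT19 (-0.0995, adjusted p = 0.000375) and KRT8 (-0.058, adjusted p = 0.0392) stayed lower, by smaller amounts. MUC1 was at -0.26 and did not pass (adjusted p = 0.0517), and KRT7, KRT18, EPCAM and CLDN3 had values above 0 that did not pass. Length itself as a source of these changes was not tested.

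The other genes of the same structures were counted in lists written for this purpose. Over all genes tested, 34.6% were called, with 17.4% higher and 17.2% lower. The share called was 60% for other keratins, 36.4% for adherens junction, 47.8% for other tight junction and 33.3% for desmosome genes. Of 32 other keratin genes, 10 were tested, and 2 of them passed as higher and 4 as lower (edgeR), with a median log2 fold change of -0.19. KRT13, a type I keratin of stratified mucosa, fell from 18.5 ± 0.738 to 8.63 ± 0.351 CPM (SD, n = 3 each), with a log2 change of -1.10 (SE 0.084, adjusted p = 8.82e-11). KRT23 fell from 6.11 ± 0.817 to 3.94 ± 0.517 CPM (log2 fold change -0.64, adjusted p = 0.00106, edgeR).

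KRT80 was higher by a small amount (log2 fold change 0.12, adjusted p = 0.00181, edgeR), at 227 CPM in control. KRT17, a basal and stress keratin, rose from 0.529 to 1.09 CPM (log2 fold change 1.02, adjusted p = 0.0193, edgeR). This call at a very low level was lost without control replicate 1, control replicate 3 or SMIP34 replicate 3 (adjusted p from 0.0658 to 0.0868) and with DESeq2 (0.0663). The keratins that passed the fold limit were thus not the abundant simple keratins of the marker list. The number of other keratins called was 3 without control replicate 3, in place of 6.

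Of 12 adherens junction genes, 11 were tested, with 3 higher and 1 lower and a median of 0.034 (3 higher and 0 lower with scaling by library size only). MLLT4 (afadin, a linker to actin) rose from 103 ± 1.91 to 118 ± 0.871 CPM (SD, n = 3 each), with a log2 change of 0.20 (adjusted p = 3.66e-05, edgeR). With gene length offsets it was 0.089 (adjusted p = 0.0297). LIMA1 (an actin-binding partner of the cadherin complex) had a log2 fold change of 0.14 (adjusted p = 0.0178, edgeR), and CTNNB1 (beta-catenin, which binds the tail of E-cadherin) of 0.088 (adjusted p = 0.00868, edgeR). JUP (plakoglobin) had a log2 fold change of -0.071 (adjusted p = 0.0430, edgeR).

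Several of these calls rested on single libraries or on the fit. The call of JUP was lost when control replicate 2 or 3 or any SMIP34 replicate was left out (adjusted p from 0.0687 to 0.156), and with scaling by library size only (0.142), that of LIMA1 without control replicate 1, SMIP34 replicate 1 or SMIP34 replicate 3 (0.0503 to 0.0916) or with DESeq2 (0.0597), and that of CTNNB1 without SMIP34 replicate 3 (0.0689). The number of adherens junction genes called was then 2 without SMIP34 replicate 1 and 1 without SMIP34 replicate 3.

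Of 35 other tight junction genes, 23 were tested, with 7 higher and 4 lower and a median log2 fold change of 0.060. The claudins of this list that passed the fold limit fell. CLDN16, a paracellular cation channel of renal epithelium, was at 517, 498 and 493 CPM in control and at 342, 337 and 327 CPM in SMIP34 replicates 1, 2 and 3. These groups were far apart, with a log2 fold change of -0.58 (SE 0.028, adjusted p = 4.82e-15, edgeR). CLDN2, a cation- and water-permeable claudin, fell from 9.02 ± 1.41 to 4.23 ± 0.629 CPM (SD, n = 3 each), with a log2 change of -1.08 (adjusted p = 6.76e-07, edgeR). Claudins called within the fold limit, named so that every called claudin is given, went both ways. CLDN1 was lower (log2 fold change -0.30, adjusted p = 7.34e-10, edgeR). CLDN7 (0.094, adjusted p = 0.0123, edgeR) and CLDN12 (0.18, adjusted p = 0.00445, edgeR) were higher. The cytoplasmic scaffolds TJP1 (ZO-1) and CGN (cingulin) rose, with log2 fold changes of 0.20 (adjusted p = 9.03e-05) and 0.21 (adjusted p = 0.000174, edgeR), and TJP1 was at 0.13 with gene length offsets (adjusted p = 0.00167).

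Of 15 desmosome genes, 9 were tested, with 2 higher and 1 lower and a median of 0.012. With upper quartile scaling or gene length offsets, 2 were higher and 3 lower. DSP (desmoplakin), which ties keratin filaments to the desmosome, rose from 150 ± 7.32 to 191 ± 4.33 CPM (SD, n = 3 each), with a log2 change of 0.35 (SE 0.034, adjusted p = 1.10e-08, edgeR). With gene length offsets DSP was at 0.24 (adjusted p = 1.06e-07, edgeR). DSG2, a desmosomal cadherin, rose by a log2 fold change of 0.12 (adjusted p = 0.000960), or 0.075 with gene length offsets (adjusted p = 0.00880), and EVPL (envoplakin) fell by 0.19 on the log2 scale (adjusted p = 0.000173, edgeR). Of 9 other membrane mucins, 3 were tested and none passed in edgeR, at an unadjusted p-value under 0.05 (0), with DESeq2 (0) or with limma voom (0). MUC1 was thus called in edgeR with no other membrane mucin called, and the difference between them was not tested.

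**Figure D4:**
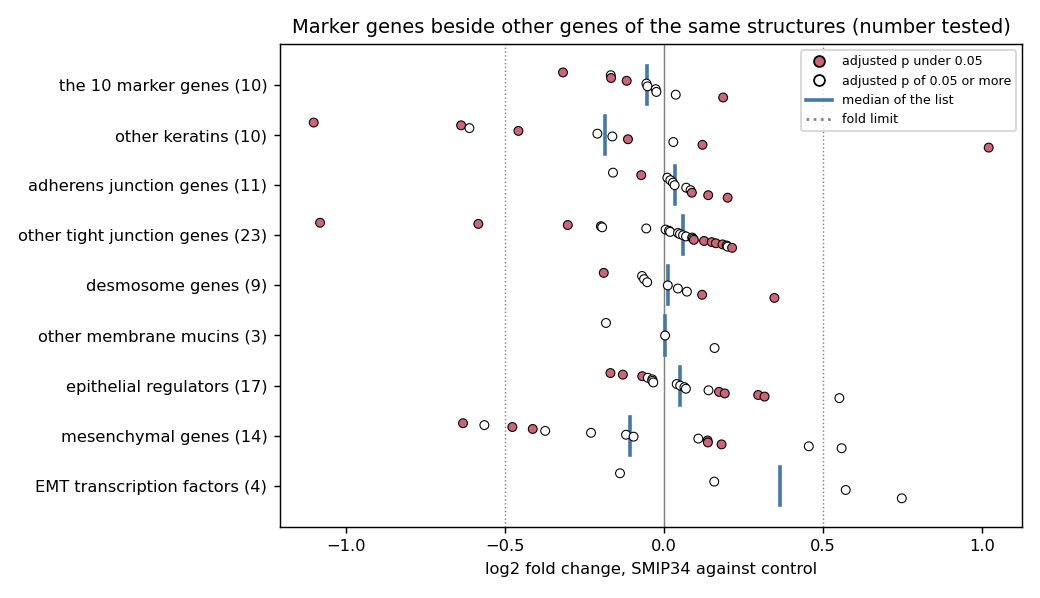
Log2 fold change of each tested gene of the marker list and of 8 lists of other epithelial and mesenchymal genes, filled where the adjusted p-value is under 0.05 (edgeR), with the median of each list as a blue line and the fold limit of 0.5 as dotted lines. The 10 marker genes lie inside the fold limit, and among the filled points KRT13, KRT23, KRT17, CLDN2, CLDN16 and TAGLN lie outside it.

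Regulators of epithelial identity and mesenchymal genes were counted beside the markers. The share called was 41.2% for the regulators and 42.9% for the mesenchymal genes, beside 34.6% over all genes tested. Of 22 epithelial regulators, 17 were tested, with 4 higher and 3 lower and a median of 0.051 (5 higher and 1 lower with scaling by library size only, and 6 higher and 1 lower with gene length offsets). KLF4 rose from 33.4 ± 0.752 to 41.6 ± 2.16 CPM (log2 fold change 0.32, adjusted p = 3.35e-05, edgeR), and ELF3 from 126 ± 3.24 to 155 ± 1.80 CPM (SD, n = 3 each; log2 fold change 0.30, adjusted p = 5.71e-08). Both are transcription factors of epithelial differentiation. AP1M2, an epithelial sorting adaptor subunit, fell by 0.17 on the log2 scale (adjusted p = 0.000164). RAB25, an epithelial GTPase, fell by 0.13 (adjusted p = 0.0276), a call lost without control replicate 2, SMIP34 replicate 2 or SMIP34 replicate 3 (adjusted p from 0.0929 to 0.163), with DESeq2 (0.0819) and with scaling by library size only (0.0581). With gene length offsets RAB25 was at -0.047 (adjusted p = 0.439) and AP1M2 at -0.11 (adjusted p = 0.00464, edgeR).

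Of 21 mesenchymal genes, 14 were tested, with 3 higher and 3 lower and a median of -0.11 (1 higher and 3 lower with upper quartile scaling). The 21 genes summed to between 1346 and 1397 CPM in control and between 1198 and 1213 CPM in treated cells, so not all of them were low. S100A4, a calcium-binding protein that is abundant in motile cells, was at 624, 667 and 588 CPM in control and at 455, 435 and 462 CPM in SMIP34 replicates 1, 2 and 3. Its groups were well separated, with a log2 fold change of -0.48 (SE 0.034, adjusted p = 2.41e-11, edgeR). With gene length offsets S100A4 was at -0.35 (adjusted p = 7.37e-14, edgeR). TAGLN, an actin-binding protein, fell from 9.25 ± 0.377 to 5.98 ± 0.985 CPM (SD, n = 3 each; log2 fold change -0.63, adjusted p = 0.000137). AXL, a receptor tyrosine kinase, rose from 500 ± 13.2 to 550 ± 5.42 CPM (SD, n = 3 each), with a log2 fold change of 0.14 (adjusted p = 0.000191, edgeR).

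Of 10 transcription factors of epithelial-mesenchymal transition, 4 were tested (SNAI1, SNAI2, SNAI3 and ZEB1, named because few were tested), each at 2.05 CPM or less on average in either group. None was called in edgeR or DESeq2, while 2 had an unadjusted p-value under 0.05 and limma voom called 1. The log2 fold changes were 0.57 for SNAI1 (adjusted p = 0.0739, edgeR) and 0.75 for SNAI3 (adjusted p = 0.0617, edgeR). ZEB1 was at 0.16 and SNAI2 at -0.14, and the median of the 4 was 0.365. The 10 genes summed to between 4.51 and 5.98 CPM in control and between 6.15 and 7.06 CPM in treated cells. Without control replicate 1 or without SMIP34 replicate 3, 1 of them was called.

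Among the markers of other cell types, COL1A1, a fibroblast collagen, was at 3.04, 2.71 and 3.13 CPM in control and at 4.19, 3.84 and 4.53 CPM in SMIP34-treated cells. It rose by 0.50 on the log2 scale (adjusted p = 0.0151, edgeR), and the call was lost without control replicate 2 (adjusted p = 0.0674) or SMIP34 replicate 3 (adjusted p = 0.0647) and with DESeq2. THY1 had 1.97 ± 0.351 CPM without and 1.64 ± 0.100 CPM with SMIP34 (SD, n = 3 each). The leukocyte markers with the highest mean over all 6 libraries, CD68 and LAPTM5, were at 1.07 and 0.830 CPM in control. Among endothelial markers these were VWF and ESAM, at 0.281 and 0.0613 CPM in control and at 0.092 and 0.275 CPM in SMIP34-treated cells. None of the 3 leukocyte markers tested was called in edgeR, at an unadjusted p-value under 0.05 (0), with DESeq2 (0) or with limma voom (0). No endothelial marker passed the filter. In bulk RNA, fewer cells that express a gene and less RNA per cell cannot be told apart.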

How the data were processed

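Estimated counts (fractional reads per gene) were deposited by the authors for 6 libraries of HEC-1-A mRNA, not normalized. Per the file headers, featureCounts 1.5.0-p1 summed reads over exons of the UCSC hg19 annotation by strand, at a mapping quality of at least 2, with reads of several places or genes divided into fractions. It was run with the paired-end option, although the design names single reads of 50 bases. The submitters' processing notes name HISAT2, whereas the methods of the study name tophat2 and HTSeq. Between 6.31 and 7.43% of the values were not whole, and counts were rounded here.

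Genes were filtered with filterByExpr, scaled by TMM (factors 0.988 to 1.01) and tested with the newer quasi-likelihood method of edgeR 4.0.16 in R 4.3.3 at an adjusted p-value of 0.05, with a fold limit of 0.5 (log2) beside it. Standard errors were derived from the F statistic. RPKM used the exon length of the files. The biological coefficient of variation was 3.03%. Alternatives were 3 other scalings, 2 other filters, DESeq2 1.42.0, limma 3.58.1 voom, the legacy method, rounding down, length offsets (loess, span 0.3), a replicate block, other thresholds, TPM and leaving out each library. The procedure was tested on simulated data. It recovered 84 of 100 genes with a planted log2 change of 0.3 and 100 of 100 with a larger one, with 6 false calls. Changes were planted only in genes above a minimum mean count, and every gene was given the same spread. No trend with gene length was simulated, so these numbers do not cover the length trend or the spread of single genes in the real libraries. Changes as small as those of KRT8, KRT19 and CLDN4 were not simulated.

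The members came from the given list. The other lists were written with earlier results of these data known, so no p-value over a list is given. Named genes were the members, PELP1 and, from each list, those past both thresholds and the 2 highest and 2 lowest called. Markers of other cell types with the highest mean CPM over all libraries were also named. Names from outside the rule carry a remark where they appear, and 1 selected gene is not reported here. Figures were drawn with matplotlib 3.10.9.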

Additional observations from a re-analysis of the deposited data

How the results depend on the processing

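Over 17 alternatives, CLDN4 (log2 fold change 0.17 to 0.24), KRT19 (-0.18 to -0.0995) and KRT8 (-0.13 to -0.058) kept their direction and passed an adjusted p-value of 0.05 in all 17, and MUC1 (-0.37 to -0.26) passed in 13 and kept its direction in all 17. CDH1, KRT7, CLDN3 and VIM passed in none, EPCAM in 1 and KRT18 in 2, one of them upper quartile scaling (-0.069). No member passed the fold limit in any alternative. With gene length offsets, KRT7 (0.037), KRT18 (0.010), EPCAM (0.0094) and CLDN3 (0.047) changed sign without passing. Leaving out each library, CLDN3 also changed sign and lay between -0.056 and 0.0033, with 0.00076 without SMIP34 replicate 1, and members called lower numbered 2 to 5, with 5 without control replicate 3. LAPTM5 changed sign without control replicate 1 (-0.030) and without SMIP34 replicate 3 (-0.15), in a range up to 0.53. An absolute log2 fold change over 1 left 104 genes in place of 444. DESeq2 called 3 other keratins in place of 6, and 0 stromal markers in place of 1, and 3570 genes in all in place of 4645. Upper quartile scaling and gene length offsets each called 5 desmosome genes in place of 3. Of the transcription factors of epithelial-mesenchymal transition, limma voom called 1 and length offsets 2, in place of 0. With single libraries left out, the called numbers were 3 to 5 other keratins, 1 to 4 adherens junction genes, 0 to 1 of these transcription factors and 0 to 2 stromal markers. The cause of these changes was not tested. The order of levels was the same in TPM for all 10 members. With the replicate number as a block, 4432 genes were called in place of 4645, and CLDN4 (0.19, adjusted p = 2.46e-05), KRT19 (-0.17), KRT8 (-0.12) and MUC1 (-0.32) kept their calls. Among the other genes named, JUP lost its call (adjusted p = 0.0795) and no other call changed. Deviations of libraries with the same number correlated at -0.028, 0.033 and -0.011, and pairing was not assumed. VIM and MUC1 had few reads, at most 100 and 223 per library.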
